A study of Mus musculus with 9 samples.

Results

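The receptor transporter proteins are a small mouse gene family of 4 members, Rtp1, Rtp2, Rtp3 and Rtp4, taken here by symbol from a table of 34714 genes. All 4 members were found. Rtp1 was chosen by its CPM in the EAE and naive libraries described below, so its values in all 3 groups are given as a description with no test. The other 3 members were taken by name.

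Proteins of this family help certain G protein-coupled receptors leave the endoplasmic reticulum and reach the cell surface. Rtp1 and Rtp2 are known as chaperones of odorant receptors in olfactory sensory neurons, where they work beside Reep1, a membrane-shaping protein of the endoplasmic reticulum. Rtp3 is known from liver, and Rtp3 and Rtp4 aid bitter taste receptors in cell culture. Rtp4 is in addition an interferon-stimulated gene, which also aids opioid receptors.

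Bulk RNA was sequenced from the cortex of 9 mice in 3 groups of 3. The groups were naive mice, mice with EAE (experimental autoimmune encephalomyelitis, a disease in which the immune system attacks myelin, studied as a counterpart of multiple sclerosis) and EAE mice given Au18(L-NIBC)14, gold nanoclusters whose ligand is N-isobutyryl-L-cysteine. By its title, the series addresses oligomerisation of the inflammasome adaptor ASC as what the compound acts on. The sources used here do not give the strain, sex or age of the mice, how EAE was induced, what untreated EAE mice received, the dose or the sampling day. The labels number the brains within each group but do not say more about their origin, so p-values measure only the spread between these samples. In bulk tissue, a change in the number of cells of a type and a change in RNA per cell cannot be told apart.

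Total counts lay between 26972179 and 45243553 per library, and 18644 genes passed the filter on low counts. Levels are in CPM, which is the count divided by the library's total after TMM scaling, on the usual per-library scale. Markers of cortical excitatory neurons were abundant in all 9 libraries, with a summed level of 5054 to 6223 CPM for 8 genes. EAE replicate 1 stood apart in choroid plexus markers, whose 6 genes summed to 896 CPM there and to between 8.08 and 104 CPM in the other libraries.

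In the reference genome GRCm38 (annotation GENCODE M21), 3 members sit together on chromosome 16. Rtp1 lies on the plus strand at 23429133 to 23433960, and Rtp4 starts 91.2 kb further along on the same strand, at 23520291 to 23614222. Rtp2 lies on the minus strand at 23925548 to 23932394. Rtp3 is on chromosome 9, on the minus strand at 110984935 to 110990583. The coding sequences have 792 bases in Rtp1, 672 in Rtp2, 750 in Rtp4 and 1425 in the longest annotated form of Rtp3.

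How far these sequences resemble each other bears on whether reads of a member could be counted for another. Over aligned bases, the coding sequences of Rtp1 and Rtp2 were 82.1% identical, and those of Rtp1 and Rtp4 59.8%. The longest run shared by Rtp1 and Rtp2 had 47 bases and lies in exon 2 of 2 in each gene. It is shown in capitals within its surroundings, at chr16:23431436-23431512 (plus strand) in Rtp1 and chr16:23927362-23927438 (minus strand) in Rtp2.
Rtp1: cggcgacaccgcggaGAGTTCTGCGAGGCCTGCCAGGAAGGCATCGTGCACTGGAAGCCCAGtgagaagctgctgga
Rtp2: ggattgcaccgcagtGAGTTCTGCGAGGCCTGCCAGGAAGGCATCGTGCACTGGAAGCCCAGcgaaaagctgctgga
No window of 50 bases of the Rtp1 coding sequence occurred unchanged in Rtp2, while 45 of its 768 windows of 25 bases did. None of its windows of 25 bases occurred in Rtp3 or Rtp4. The longest run that Rtp1 and Rtp4 shared anywhere in their longest annotated transcripts was 11 bases. The sources used here do not state the read length.

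A stretch of 90 coding bases around that run of 11 shows how the interferon-inducible member differs from the odorant receptor chaperones. Capitals mark the 30 bases that are equal in all 4 members, and in each gene the stretch crosses an intron. The stretches lie within chr16:23429406-23431203 (Rtp1), chr16:23927671-23930579 (Rtp2), chr9:110987270-110989489 (Rtp3) and chr16:23610105-23612925 (Rtp4).
Rtp1: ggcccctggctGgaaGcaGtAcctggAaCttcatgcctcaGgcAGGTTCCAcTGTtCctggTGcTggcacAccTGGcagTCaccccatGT
Rtp2: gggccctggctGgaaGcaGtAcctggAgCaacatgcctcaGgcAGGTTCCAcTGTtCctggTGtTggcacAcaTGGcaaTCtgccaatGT
Rtp3: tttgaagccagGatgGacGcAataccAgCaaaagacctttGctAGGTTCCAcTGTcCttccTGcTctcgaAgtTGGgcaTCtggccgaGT
Rtp4: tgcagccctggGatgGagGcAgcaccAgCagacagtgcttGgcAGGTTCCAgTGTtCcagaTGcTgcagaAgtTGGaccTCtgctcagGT
In this stretch Rtp1 had 80 of 90 bases in common with Rtp2, 45 with Rtp4 and 40 with Rtp3. Rtp3 and Rtp4 had 55 in common.

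Rtp1, the chaperone of odorant receptors, was at 0.492, 0.660 and 0.414 CPM in naive replicates 1, 2 and 3. In EAE it was at 11.03, 11.13 and 7.19 CPM. In treated EAE it was at 1.07, 0.925 and 0.625 CPM. The 3 EAE libraries all lay far above the other 6, and the lowest of them was 10.9 times the highest naive library and 6.69 times the highest treated library. Treated replicates 1 and 2 lay above every naive library, and treated replicate 3 lay below naive replicate 2.

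The raw counts behind these values were 12 to 22 in naive, 207 to 344 in EAE and 17 to 44 in treated libraries. Mean levels were 0.522 ± 0.126, 9.78 ± 2.25 and 0.875 ± 0.229 CPM (SD, n = 3 each). As a description, the ratio of mean CPM was 18.8 between EAE and naive, 11.2 between EAE and treated EAE, and 1.68 between treated EAE and naive. On the log2 scale of the model the differences were 4.23 (SE 0.29), -3.46 (SE 0.27) and 0.77 (SE 0.30) for EAE against naive, treated EAE against EAE and treated EAE against naive. The first difference ranked 17th among 18644 tested genes and the treated difference was the 9th lowest. Groups did not overlap in the first 2 comparisons, where 12.2% of tested genes were higher without overlap in EAE and 9.28% were lower without overlap in treated EAE. The comparisons share the EAE or the naive libraries, so they are not separate evidence. Leaving out EAE replicate 1, the library with choroid plexus markers, gave 4.14 and -3.38.

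**Figure D1:**
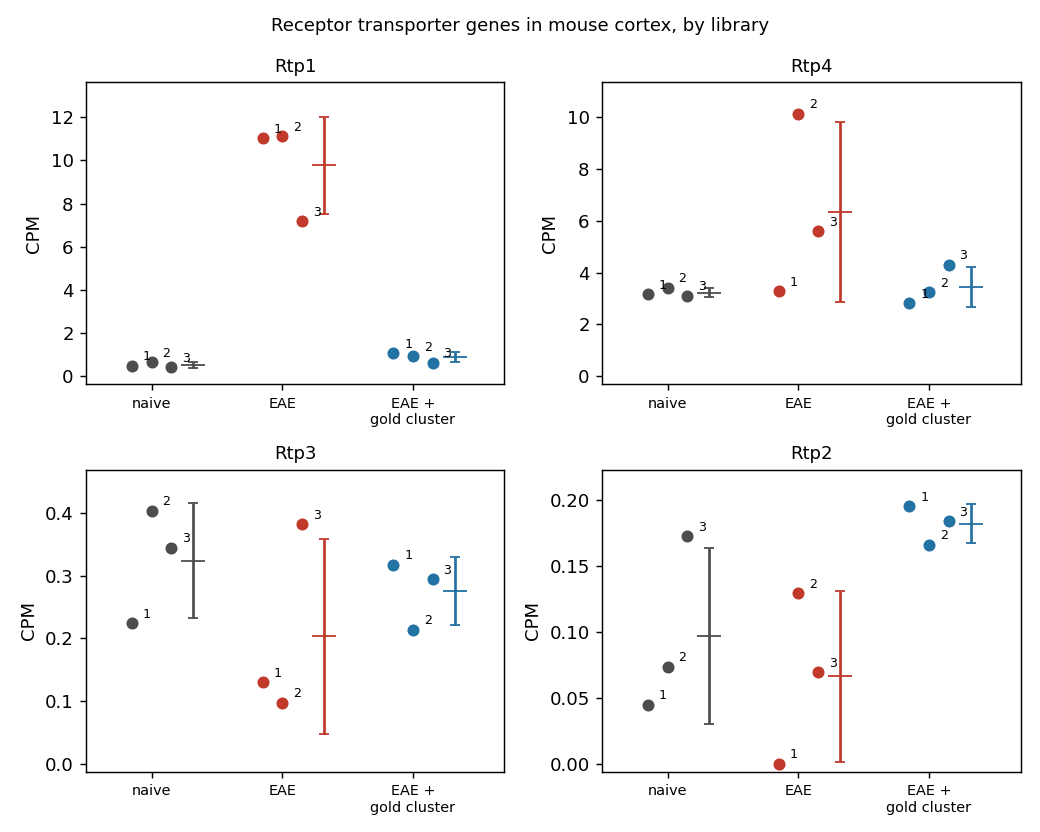
Level of each receptor transporter gene in CPM (y axis, linear, different range per panel) in the 3 groups (x axis). Points are libraries with their replicate number, and the bar beside them is the mean ± SD (n = 3). The 3 EAE libraries of Rtp1 sit between 7.19 and 11.1 CPM, above all others, while EAE replicate 1 of Rtp4 sits at 3.28 CPM among the naive libraries.

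Rtp4, the interferon-stimulated member, had another distribution over the same libraries. It was at 3.17, 3.41 and 3.10 CPM in naive replicates 1, 2 and 3. In EAE it was at 3.28, 10.1 and 5.59 CPM. In treated EAE it was at 2.81, 3.25 and 4.30 CPM. EAE replicates 2 and 3 lay above all 7 other libraries, whereas EAE replicate 1 fell between naive libraries, so the EAE group overlapped both others. Between libraries of the same number, the treated one was below the EAE one in all 3 cases. No label ties these numbers between groups, and treated replicate 3 lay above EAE replicate 1.

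Rtp4 did not pass the test in any comparison. It averaged 3.23 ± 0.161 CPM in naive and 6.33 ± 3.48 in EAE (SD, n = 3 each), which gave a log2 fold change of 0.97 (SE 0.36, 95% interval 0.17 to 1.77, edgeR adjusted p = 0.219). Treated EAE, at 3.45 ± 0.766 CPM, differed from EAE by -0.88 (SE 0.35, 95% interval -1.68 to -0.087, edgeR adjusted p = 0.285) and from naive by 0.091 (SE 0.36, 95% interval -0.71 to 0.89, edgeR adjusted p = 1.00). In these comparisons edgeR called 0.987%, 0.220% and 0.00% of all tested genes, and neither Rtp3 nor Rtp4 was among them. The intervals are unadjusted, and the unadjusted p of Rtp4 was under 0.05 in the first 2 comparisons (0.0222 and 0.0332). DESeq2 gave Rtp4 adjusted p = 0.0926 and 0.156 there. The size rested on EAE replicate 2: without that library the log2 fold changes were 0.46 (edgeR adjusted p = 0.561) and -0.37 (edgeR adjusted p = 0.679).

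Per kilobase of exon, the order of the 2 leading members differed between groups. In naive cortex the Rtp4 level was 1.52 ± 0.0757 CPM per kb and the Rtp1 level 0.167 ± 0.0404, with no overlap. In treated EAE they were 1.62 ± 0.359 and 0.280 ± 0.0734 CPM per kb, again with no overlap. In EAE the levels were 2.97 ± 1.63 for Rtp4 and 3.14 ± 0.720 for Rtp1 and did not differ beyond their spread. Within EAE libraries, Rtp1 exceeded Rtp4 in replicate 1 (3.54 against 1.54 CPM per kb) and was below it in replicates 2 (3.57 against 4.75) and 3 (2.30 against 2.62).

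Rtp3, known from liver, was near the lower limit of what these libraries can count. It had 10 or 11 counts in each naive library, 4, 3 and 11 in EAE and 13, 9 and 8 in treated EAE. Mean levels were 0.324 ± 0.0917, 0.203 ± 0.156 and 0.275 ± 0.0546 CPM (SD, n = 3 each), and all groups overlapped. No comparison passed, with log2 fold changes of -0.65 (SE 0.54, edgeR adjusted p = 0.613) in EAE against naive, 0.44 (SE 0.54, edgeR adjusted p = 0.762) in treated EAE against EAE and -0.21 (SE 0.51, edgeR adjusted p = 1.00) in treated EAE against naive. The 95% interval for EAE against naive, -1.86 to 0.56, includes a decrease by more than 1 on the log2 scale, and that for treated EAE against EAE, -0.78 to 1.66, an increase by more than 1. Exons of Gm10030 on the opposite strand overlap 20.4% of its exon bases, and reads of the 2 genes cannot be told apart without a stated strand setting.

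Rtp2, the second odorant receptor chaperone, had too few counts to be tested. It had 2, 2 and 5 counts in the naive libraries, 0, 4 and 2 in EAE and 8, 7 and 5 in treated EAE. Its highest library was at 0.195 CPM, and in EAE replicate 1, where Rtp1 had 340 counts, it had 0. The treated libraries lay above the EAE ones without overlap, as did 9.93% of tested genes. With no filter on low counts, the difference between treated EAE and EAE was 1.40 (SE 1.00, edgeR adjusted p = 0.695). By mean level per kilobase the order of the family was Rtp4, Rtp1, Rtp3 and Rtp2 in naive and treated cortex. The naive ranges of the middle members nearly touched, at 0.133 to 0.212 CPM per kb for Rtp1 and 0.0731 to 0.132 for Rtp3. The naive range of Rtp2, 0.0167 to 0.0644 CPM per kb, lay below that of Rtp3. In treated EAE the ranges of Rtp3 (0.0698 to 0.104) and Rtp2 (0.0621 to 0.0731) overlapped. In EAE, Rtp1 and Rtp4 overlapped at the top, and Rtp3 (0.0317 to 0.125) and Rtp2 (0 to 0.0484) overlapped at the bottom.

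The family members on chromosome 16 share their surroundings with few other protein-coding genes. Masp1, a protease gene of the lectin complement pathway, has its span between the starts of Rtp1 and Rtp4, up to the first bases of the latter. It averaged 12.5 ± 0.961 CPM in naive and 15.6 ± 0.267 in EAE (log2 fold change 0.32, SE 0.11, edgeR adjusted p = 0.215). St6gal1, a sialyltransferase gene on the other side of Rtp1, averaged 23.0 ± 1.82 in naive and 28.5 ± 4.75 CPM in EAE (0.31, SE 0.12, edgeR adjusted p = 0.236). Sst, the somatostatin gene between Rtp4 and Rtp2, averaged 148 ± 14.7 in naive and 125 ± 8.71 CPM in EAE (-0.25, SE 0.09, edgeR adjusted p = 0.192). Bcl6, a transcriptional repressor gene next to Rtp2, was at 24.1 ± 3.72 CPM in naive, 36.0 ± 2.07 in EAE and 25.5 ± 3.72 in treated EAE. Its log2 fold changes were 0.58 (SE 0.13) and -0.49 (SE 0.13), which missed the threshold with edgeR (adjusted p = 0.0716 and 0.147) and passed it with DESeq2 (adjusted p = 0.00506 and 0.0296). Lpp, a cell adhesion gene beyond Bcl6, had 0.39 in EAE against naive (SE 0.11, edgeR adjusted p = 0.123), and Adipoq, a fat cell hormone gene, had no count in naive and EAE libraries. St6gal1, Masp1, Sst, Bcl6 and Lpp each had an unadjusted edgeR p under 0.05 in EAE against naive, where 16.4% of all tested genes did. In treated EAE against EAE this held for Sst, Bcl6 and Lpp (15.1% of all tested genes) and not for St6gal1 and Masp1. Exons of Masp1 and Rtp4 do not overlap in the annotation, and 13.9% of the Rtp4 exon bases are shared with Gm45338 on the same strand, which has no row in the count table.

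**Figure D2:**
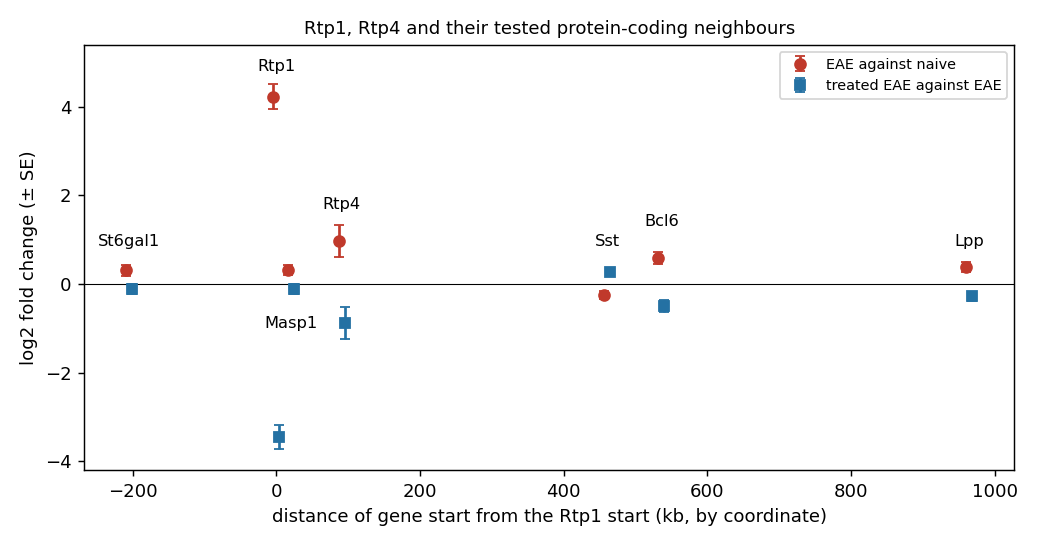
Log2 fold changes with their SE (y axis) against the distance of each gene's start from that of Rtp1 in kb (x axis), for the tested protein-coding genes next to Rtp1, Rtp4 and Rtp2. Rtp1 stands at 4.23 and -3.46, and Masp1, the gene between Rtp1 and Rtp4, at 0.32 and -0.11.

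The receptors and the transduction chain that Rtp1 serves in the nose were followed next. Of 1107 odorant receptor rows (symbols of the form Olfr and a number), 916 had no count in any library and 14 could be tested. Olfr287 was the most abundant of these, with 6.68 ± 1.35 CPM in naive and 8.51 ± 1.65 in EAE (log2 fold change 0.35, SE 0.30, edgeR adjusted p = 0.619). None was called higher in EAE. Olfr464 fell from 0.834 ± 0.0795 to 0.265 ± 0.0250 CPM (-1.64, SE 0.28, edgeR adjusted p = 0.0334), where 0.252% of all tested genes were called lower. It was at 0.561 ± 0.00905 CPM in treated EAE, which did not pass against EAE (edgeR adjusted p = 0.147). The summed level of all odorant receptors was 19.8 to 25.7 CPM in naive, 20.4 to 24.4 in EAE and 17.5 to 32.6 in treated libraries.

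Signal transduction genes of olfactory neurons did not follow Rtp1. Of 15 tested members, 3 were above 0 in EAE against naive, with a median log2 fold change of -0.15 beside -0.0051 over all tested genes. EdgeR and DESeq2 called 0 of them, and 1 had an unadjusted edgeR p under 0.05, where 16.4% of all tested genes did. Gnal, the olfactory G protein subunit that striatal neurons also express, ranged from 151 to 404 CPM in naive and from 142 to 293 CPM in EAE. Gng13, another G protein subunit gene, averaged 11.9 ± 1.27 in naive and 9.76 ± 0.517 CPM in EAE (-0.29, SE 0.11, edgeR adjusted p = 0.236), and Adcy3, the adenylyl cyclase of the pathway, lay between 60.9 and 78.8 CPM over all 9 libraries. Omp, the defining marker of mature olfactory sensory neurons, was at 3.17 CPM at most, in a naive library, and at 0.278 to 0.453 CPM in EAE. Cnga2, the olfactory channel gene, was at 0.591 to 0.712 CPM in EAE, within its naive range of 0.482 to 1.21. Of 19 tested identity genes of olfactory neurons, most of which cortical cells also express, edgeR called 0, with a median of 0.072. Among these 19 genes, 3 had an unadjusted edgeR p under 0.05 (16.4% of all tested genes did). DESeq2 called 2 higher (701 of 19164 over all genes). Of these, 5 of 19 were higher in EAE without overlap, where 12.2% of all tested genes were, and 0 were lower. They were Ldb1, Emx2, Calb2, Ebf4 and Kirrel2. Ebf4, a transcription factor gene, averaged 13.7 ± 2.74 CPM in naive and 19.6 ± 1.99 in EAE (0.53, SE 0.15, edgeR adjusted p = 0.122), and Kirrel2, an adhesion molecule gene, had 0.53 (SE 0.16, edgeR adjusted p = 0.151). Olfactory bulb markers had a median of -0.11 in EAE against naive, 0 of 9 called by edgeR or DESeq2 and 0 with an unadjusted p under 0.05.

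The 6 genes of the Reep family, of which Reep1 is the one known to work beside Rtp1 and Rtp2, were all tested. Reep1 was at 147 ± 18.2 CPM in naive, 121 ± 6.70 in EAE and 147 ± 18.6 in treated EAE, which in EAE against naive was -0.28 on the log2 scale (SE 0.11, edgeR adjusted p = 0.251). Reep6 ranged from 9.13 to 13.9 CPM in naive, 7.40 to 8.86 in EAE and 10.9 to 13.1 in treated EAE (-0.56 in EAE against naive, SE 0.16, edgeR adjusted p = 0.132). Reep2 (-0.24) and Reep5 (-0.17) were also lower in every EAE than in every naive library, so 4 of 6 members were lower without overlap, where 11.8% of tested genes were. The family median was -0.20. None passed with edgeR, and 4 had an unadjusted p under 0.05, where 16.4% of all tested genes did. DESeq2 called 1 lower (340 of 19164 over all genes).

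Receptors that Rtp3 or Rtp4 are known to aid were mostly near 0. The 5 bitter taste receptor genes of the list had between 0 and 4 counts in any library. Oprd1, the delta opioid receptor gene, was at 23.3 ± 3.30 CPM in naive, 16.2 ± 0.542 in EAE and 23.5 ± 3.44 in treated EAE. Every EAE library was below every naive and every treated library, and the log2 fold changes were -0.52 (SE 0.13, edgeR adjusted p = 0.0860) and 0.53 (SE 0.13, edgeR adjusted p = 0.130), neither past the threshold. DESeq2 called Oprd1 in both comparisons. Oprm1, the mu opioid receptor gene, was at 1.15 ± 0.221, 1.01 ± 0.334 and 1.41 ± 0.214 CPM (-0.19 and 0.49, edgeR adjusted p = 0.817 and 0.494). Its treated libraries lay above all naive ones, as did those of 3.51% of tested genes.

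Rtp4 varied with other interferon-stimulated genes between libraries. The list held 49 such genes, of which 46 had a row and 45 were tested, and did not include Rtp4. As the mean of log2 CPM centred on each gene's mean over the libraries, the list was at -0.42, 1.24 and 0.37 in EAE replicates 1, 2 and 3. It was at -0.31, -0.32 and -0.29 in naive and -0.32, 0.073 and -0.030 in treated libraries. Rtp4 and the list shared their highest library, EAE replicate 2, and their second highest, EAE replicate 3, and in both EAE replicate 1 was near the naive level. Over the 9 libraries, which share the tissue and the 3 groups, the Pearson correlation with the list mean was 0.96 for Rtp4 and 0.57 for Rtp1, and that between Rtp1 and Rtp4 was 0.64, or -0.15 with group means removed.

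Of the 45 tested interferon-stimulated genes, 43 were above 0 in EAE against naive, with a median of 0.85 beside -0.0051 over all tested genes, and 11 of 45 were higher without overlap (12.2% of all tested genes were). EdgeR called 0 of them, 20 had an unadjusted p under 0.05 (16.4% of all tested genes did) and DESeq2 called 10 higher (701 of 19164 over all genes). Without EAE replicate 1, edgeR called 8. Lgals3bp, a secreted glycoprotein gene, averaged 14.2 ± 2.15 CPM in naive and 42.7 ± 26.3 in EAE (1.59, SE 0.40, edgeR adjusted p = 0.0996), and Tor3a had 0.72 (edgeR adjusted p = 0.1105). Ifi27 had 0.46 (SE 0.10, edgeR adjusted p = 0.0663) and Ifi27l2a 2.20 (SE 0.58, edgeR adjusted p = 0.104). In treated EAE against EAE, 1 of 45 was above 0, the median was -0.60 and edgeR called 0. There 11 had an unadjusted edgeR p under 0.05 (15.1% of all tested genes did) and DESeq2 called 1 lower (372 of 17580 over all genes). In treated EAE against naive the median was 0.22 and neither tool called any, with 0 at an unadjusted edgeR p under 0.05, where 1.71% of all tested genes were.

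Of 15 tested genes for interferon receptors and signalling, 12 were above 0 in EAE against naive with a median of 0.16. EdgeR called 0, 4 had an unadjusted p under 0.05, beside the 16.4% over all genes, and DESeq2 called 2 higher, beside its 701 of 19164. Irf8, a transcription factor gene of myeloid cells, averaged 6.24 ± 1.07 in naive and 11.9 ± 4.66 CPM in EAE (0.93, SE 0.28, edgeR adjusted p = 0.146), and Ifngr1, a chain of the interferon gamma receptor, at 13.3 ± 1.24 and 19.0 ± 4.11 CPM (0.51, SE 0.15, edgeR adjusted p = 0.132).

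Markers of several other cell types differed between the EAE libraries. The 6 microglia markers summed to 272 to 332 CPM in naive and to 287, 539 and 353 CPM in EAE replicates 1, 2 and 3, the order of Rtp4. The 7 monocyte and neutrophil markers summed to 5.83 to 6.89 CPM in naive, to 11.9, 44.0 and 105 CPM in EAE and to 15.4, 13.8 and 6.10 CPM in treated libraries, so that EAE replicate 3 rather than 2 was highest. Summed markers of astrocytes (1142, 1880 and 1448 CPM in EAE replicates 1, 2 and 3), endothelium (184, 259 and 219 CPM) and B cells with plasmacytoid dendritic cells (17.8, 36.9 and 25.05 CPM) also had the order of Rtp4. The 6 T cell markers summed to 2.38 to 20.7 CPM in naive and to 10.2, 16.6 and 2.92 CPM in EAE replicates 1, 2 and 3. Cd4 reached 19.0 CPM in a naive library, while Cd3e, a defining T cell gene, was at 0.259 CPM or less. Rtp1 was high in EAE replicates 1 and 2 and lower in 3, and so were summed markers of striatum (764, 1112 and 201 CPM) and olfactory bulb (283, 334 and 190 CPM). Most of the bulb sum came from Meis2 and Synpr, with means of 130 and 101 CPM in EAE. No other bulb marker exceeded 16.05 CPM in any library, so the sum says little about bulb tissue. In naive libraries, where Rtp1 was under 1 CPM, the striatal sum ranged from 180 to 1287 CPM and the bulb sum from 203 to 378 CPM. The part of these cells in the Rtp4 and Rtp1 values was not tested.

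**Figure D3:**
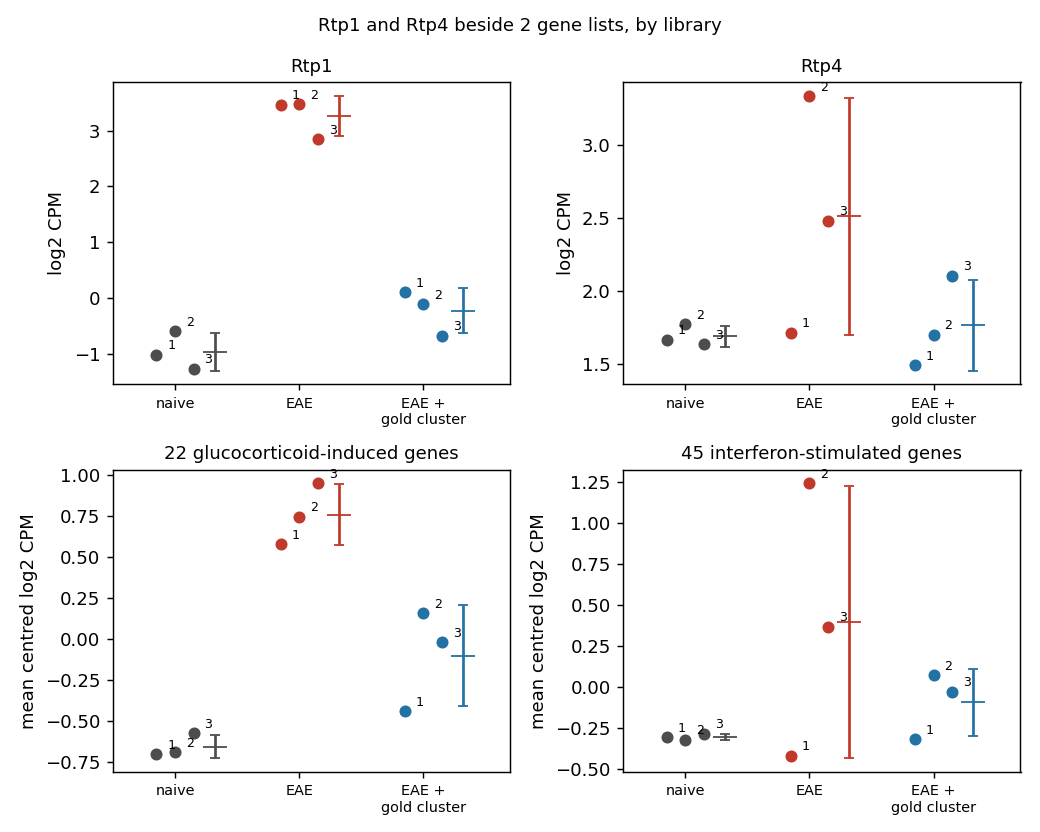
Upper panels show log2 CPM of Rtp1 and Rtp4, and lower panels the mean log2 CPM, centred on each gene's mean over the 9 libraries, of 22 glucocorticoid-induced and 45 interferon-stimulated genes (y axes, different ranges) in the 3 groups (x axis). Points are libraries with their replicate number, bars are mean ± SD (n = 3). EAE replicate 1 is above all naive and treated libraries for Rtp1 and the glucocorticoid list (0.58, the lowest of the EAE group). It is low for Rtp4 and the interferon list (-0.42). Within EAE, replicate 3 is highest for the glucocorticoid list and lowest for Rtp1.

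The genes most like Rtp1 over the 9 libraries, by Pearson correlation of log2 CPM among 14063 genes whose mean log2 CPM was 0 or more, were Ddit4 (0.98), B4galt1 (0.98), Tead3 (0.97), S100a4 (0.97), Tef (0.97), Sparc (0.96), Acr (0.96) and Fkbp5 (0.96). These correlations mostly state that EAE libraries were high and the other 6 low, and once group means were removed they ranged from 0.13 for Tef to 0.89 for Tead3. Ddit4, an inhibitor of mTORC1, was at 71.1, 80.2 and 67.8 CPM in EAE and between 25.5 and 31.4 CPM in the other 6 libraries. Fkbp5, a co-chaperone of the glucocorticoid receptor, was at 75.3 to 101 CPM in EAE and 22.4 to 46.7 CPM elsewhere. B4galt1, a galactosyltransferase gene, was at 10.8 to 14.1 CPM in EAE and 6.01 to 6.91 CPM elsewhere. Among these 8, the largest log2 fold change in EAE against naive was 1.92, in S100a4, which encodes a calcium-binding protein. Rtp1 was chosen by its level in these groups, so its larger difference beside theirs is no evidence.

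Ddit4 and Fkbp5 belong to a list of 22 genes induced by glucocorticoids. That list was taken up because it was already known to move in these data, so its direction is no independent evidence. All 22 were above 0 in EAE against naive with a median of 1.24, and 11 were called higher, where 0.735% of tested genes were. Lcn2 (6.11, SE 1.19, edgeR adjusted p = 0.0600) and Plin4 (4.53, SE 0.57, edgeR adjusted p = 0.0208) had larger log2 fold changes than the 4.23 of Rtp1. Plin4 averaged 2.65 ± 0.186 CPM in naive, 61.4 ± 4.47 in EAE and 10.8 ± 8.82 in treated EAE. In treated EAE against EAE all 22 were below 0 with a median of -0.80, and Ddit4, Nfkbia, Sgk1 and Arrdc2 were called lower, where 0.129% of tested genes were. The list mean was 0.58, 0.75 and 0.95 in EAE, -0.70 to -0.58 in naive and -0.44, 0.16 and -0.019 in treated libraries. In treated replicate 1, where the list was lowest of that group, Rtp1 was highest of that group, at 1.07 CPM. Over the 9 libraries Rtp1 correlated with the list mean at 0.89 and Rtp4 at 0.68. Rtp1 and the list were both chosen with their difference in EAE known, so the first value mostly restates that difference. Within EAE the list was highest in replicate 3, where Rtp1 was lowest.

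Among the genes most like Rtp4 were Itgb5 (0.99), B2m (0.97), Il10ra (0.97), Npc2 (0.97), C4a (0.96), Lrp5 (0.96) and Oasl2 (0.96), and with group means removed their correlations were 0.94 to 0.98. B2m, the light chain of MHC class I, was at 80.2, 209 and 147 CPM in EAE replicates 1, 2 and 3, 71.7 to 75.1 CPM in naive and 67.7 to 87.0 CPM in treated libraries. Oasl2, an interferon-stimulated gene, was at 3.47, 23.2 and 10.1 CPM in EAE and 3.78 to 5.79 CPM in the others. None of these 7 genes passed in any comparison with edgeR, and none of them was among the 8 most like Rtp1.

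**Figure D4:**
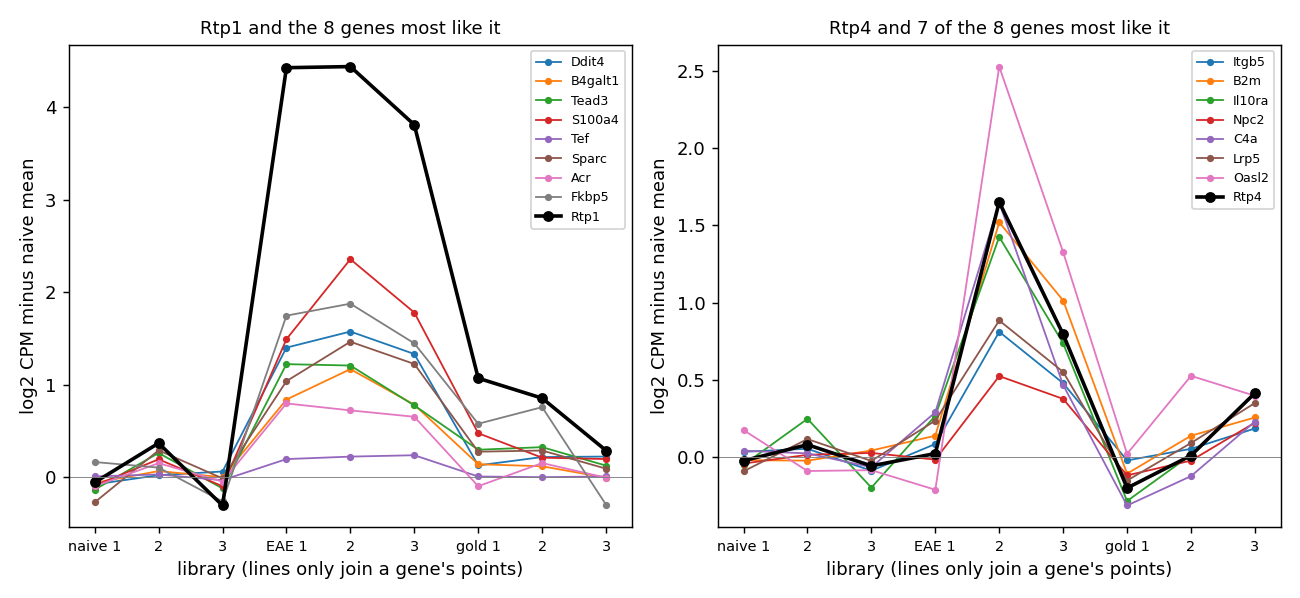
Log2 CPM minus the naive mean (y axis) in each library (x axis, gold denotes treated EAE) for Rtp1 and the 8 genes most like it (left) and Rtp4 and 7 of the 8 genes most like it (right). The genes on the left are raised in all 3 EAE libraries, and those on the right mainly in EAE replicates 2 and 3.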

How the data were processed

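Messenger RNA of 9 cortex samples, enriched on oligo(dT) beads, was sequenced, per the labels' protocols. Per the submitters' processing notes and design text, FastQC 0.11.8 served for read quality, fastp for trimming, Hisat2 for alignment and bowtie2 for quantification, with mm10 as the build (the same assembly as GRCm38). For annotation, strand and counting options: not given in the sources used here. What the authors deposited is a table of raw counts per gene symbol. Columns were matched by title, and 9 further columns match no sample used here and were left out. In each library 3.80 to 4.43 times as many genes had a count of 2 as a count of 1. Whether a count is 1 fragment is not stated, so counting error may exceed what counts imply.

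The counts of all 9 libraries were fitted with edgeR 4.0.16 (R 4.3.3) by robust quasi-likelihood with group as the only factor, after filterByExpr and TMM scaling, with Benjamini-Hochberg adjustment over 18644 genes and a threshold of 0.05. An adjusted p printed as 1.00 is rounded. SE is the absolute log2 fold change over the square root of F. The fit was tested on simulated counts. DESeq2 1.42.0, other scalings and filters, a replicate block, fits of 2 groups and fits without each library were alternatives.

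The members and lists were chosen with earlier results of these data known. Named genes are the members, their nearest 2 protein-coding genes on each side, the 8 most correlated genes, and up to 4 members per list with the smallest p. Olfr287, Gnal, Adcy3, Omp, Cnga2, Cd3e, Meis2, Synpr, Lcn2 and Plin4 are named beside that rule. Placeholder symbols were left out, and 1 of the 8 genes most correlated with Rtp4 is not reported here. No label ties replicate numbers between groups. Same-numbered EAE and treated libraries deviated together from their groups' means (correlations 0.175, 0.245 and 0.238), and by the rule of over 0.1 in every pair they count as paired. With naive libraries not all pairs exceeded 0.1. Treated replicate 1 and naive replicate 2, of unlike number, reached 0.293, so the rule cannot show that libraries came as pairs. Protein sequences and the promoters of Rtp1 and Rtp4 were not used here. Transcript sequences are from GENCODE M21.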

Additional observations from a re-analysis of the deposited data

How the results depend on the processing

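The log2 fold change of Rtp1 kept its sign in all 16 alternatives of each comparison. It ran from 4.11 to 4.41 in EAE against naive and from -3.65 to -3.29 in treated EAE against EAE. In treated EAE against naive it ran from 0.59 to 0.94. Rtp1 was chosen by its level in these libraries, so its steady sign is a description and no evidence. Rtp4 passed the threshold in no alternative, with 0.46 to 1.29 (adjusted p 0.0616 to 0.561) and -1.20 to -0.37 (0.124 to 0.679) in the first 2 comparisons. Against naive, treated Rtp4 ran from -0.091 to 0.21 with each library left out and turned to -0.091 without treated replicate 3. Rtp3 kept its direction where it could be tested, at -1.45 to -0.32, 0.10 to 1.24 and -0.45 to -0.037. It dropped out at a CPM of at least 1 in 3 libraries, as did Rtp2, which was tested in no fit but that without a filter and DESeq2. The replicate block paired all groups by number, though pairs with naive libraries did not all meet the rule for pairing. With this block, Rtp4 had 0.86 (adjusted p = 0.212) and -0.79 (0.264), so that it changed no call of a member. The counts of called genes were 238, 46 and 0.

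Counts over all genes depended more on the setting. In EAE against naive edgeR called 184 genes and DESeq2 1041, and leaving out a library gave 2 to 261, with 2, 7 and 19 without naive replicates 1, 2 and 3, 34 and 52 without EAE replicates 2 and 3, and 87 without treated replicate 2. In treated EAE against EAE edgeR called 41, DESeq2 688 and the fit of only these 2 groups 3, and leaving out a library gave 4 to 38, with 20 or fewer for every library but EAE replicate 1 (38). In treated EAE against naive edgeR called 0 (318 at an unadjusted p under 0.05) and DESeq2 3. Of the interferon-stimulated genes edgeR called 0 in the first 2 comparisons, DESeq2 10 and 1, and leaving out a library gave 0 to 8 (8 without EAE replicate 1, 1 without treated replicate 3) and 0. The cause of these differences was not tested. The list medians printed kept their sign with RLE factors, total counts and DESeq2. Levels near 10 counts, as in Rtp2 and Rtp3, limit what can be detected.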
